A study of Mus musculus with 16 samples.

Results

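Transcripts of 8 genes were followed: the activation-induced transcription factors Egr1, Egr2 and Egr3 of the EGR family, their corepressors Nab1 and Nab2, and the orphan nuclear receptors Nr4a1, Nr4a2 and Nr4a3. They were taken by symbol from the 23337 gene symbols counted in each library, and all 8 were among the 12952 genes that passed the filter on low counts. The genes were selected on results of these same libraries, Egr2 with miR-27a among them. Their differences between the groups are therefore given as a description, and the adjusted p-values beside them, which come from a fit over all 12952 genes, are no independent support.

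EGR proteins are zinc finger factors that bind GC-rich promoter sites, and NR4A proteins are nuclear receptors that act without a known hormone and bind as monomers, dimers or with RXR partners. Both families are immediate early genes: engagement of the T cell receptor induces them through calcium, NFAT and ERK signalling before new protein is made. Egr2 and Egr3 restrain T cells and are linked to anergy and tolerance, Egr1 is tied to activation and to cytokine genes, and NR4A factors take part in negative selection, regulatory T cell development and T cell dysfunction. Nab1 and Nab2 bind EGR proteins and bring in chromatin remodellers that repress their targets, and Nab2 is itself an EGR target.

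The libraries came from CD4+ T cells of C57BL/6 mice that carried Dgcr8f/f, Cd4-cre and Tbx21-/- in every group, the control included. Dgcr8 is needed to process most microRNAs, Cd4-cre removes it during thymic development of T cells, and Tbx21 encodes T-bet, the factor of Th1 cells. Cells without Dgcr8 lack most microRNAs of their own, and sorting was on YFP from the Rosa locus. Dgcr8 stood at 32.5 to 58.4 CPM in 15 libraries and Tbx21 at 0 to 5.197 CPM in all 16, and gene counts cannot tell a transcript without the deleted exon from an intact one. Spleen and lymph node cells were activated for 3 days by antibodies to CD3 and CD28, with IL-4 at 10 U/ml, and then kept in IL-2 at 20 U/ml over a further 2 days of rest. Synthetic microRNA mimics were introduced by electroporation at 500 nM on day 1 and day 4. The 4 groups received a control mimic, miR-23a, miR-24 or miR-27a, with 4 libraries each. The labels give no age or sex and do not tie libraries to mice, so the p-values measure the spread between libraries, which may be technical.

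Reads counted in genes ran from 2120408 to 13714841 in 15 libraries. Levels are given as CPM, the counts scaled to library size with TMM factors. Control replicate 1 held 51474 reads, and in it 1 read came to 16.3 CPM and 3 reads to 48.8 CPM. All 9 CD4 T cell markers present in the files had reads in every group, with sums of 2930 to 4900 CPM. Markers of B cells summed to 0 to 21.9 CPM, myeloid markers to 0 to 24.6 CPM, granulocyte markers to 0 to 1.57 CPM and erythroid markers to 0 to 0.470 CPM. CD8 T cell markers summed to 0 to 35.7 CPM and NK cell markers to 0.994 to 85.1 CPM, with Ncr1 and Klra8 at 0 in every group. Dendritic cell markers summed to 62.7 to 103 CPM with miR-24 and to 32.6 to 57.4 CPM in the other groups. Class II presentation genes summed to 46.4 to 239 CPM with miR-27a, 52.8 to 183 CPM with miR-23a, 35.9 to 121 CPM with miR-24 and 32.5 to 120 CPM in the control group, so all groups overlapped. The part of these transcripts in the results was not tested. In these bulk libraries, fewer cells with a transcript and less of it per cell cannot be told apart.

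The mature sequences are shown because a microRNA recognises a transcript mainly through its seed, bases 2 to 8, given in capitals. The mimics' arms and sequences are not stated in the labels. The 3p arms were assumed, with sequences from RefSeq (GRCm38.p6), and no seed is shared between the mimics.
miR-23a: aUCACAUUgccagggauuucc
miR-24: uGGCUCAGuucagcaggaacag
miR-27a: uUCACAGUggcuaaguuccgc

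Matches to these seeds were sought in each member's 3-prime UTR, in its longest annotated form (GENCODE M21, GRCm38, the assembly of mm10). Egr2, Nab2, Nr4a1, Nr4a2 and Nr4a3 held no 8mer, 7mer-m8 or 7mer-A1 match of any mimic, and no member held a match of miR-27a. Of 11027 tested genes that could be searched, 32.2% held a miR-27a match, 29.4% a miR-24 match and 26.9% a miR-23a match. The matches in Egr3 and Nab1 are shown with the bases around them, match in capitals, and the match in Egr1, a 7mer-A1 of miR-23a, is named only.
Egr3 with miR-24, 8mer at chr14:70080207-70080214, plus strand: tccaggggccgCTGAGCCAcgccaaggacc
Egr3 with miR-23a, 7mer-m8 at chr14:70081912-70081918, plus strand: atactttttatAATGTGAtgattatttaa
Egr3 with miR-23a, 7mer-A1 at chr14:70082185-70082191, plus strand: cactctaacttATGTGAActgagagaaaa
Nab1 with miR-23a, 7mer-m8 at chr1:52458407-52458413, minus strand: agatagccctaAATGTGAtaaagatgatg

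The promoters of Egr2 and of the NR4A genes are shown because these genes answer to shared activation signals. Each is the RefSeq window of 250 bases before to 50 after a start site (GRCm38.p6), and matches of the motifs searched are in capitals. The motifs, searched on both strands, were the full CRE TGACGTCA, its core TGACG, NFAT TGGAAA, EGR GCGNGGGCG, NBRE AAAGGTCA and the CArG box bound by SRF.
Egr2 at chr10:67537619-67537918, plus strand: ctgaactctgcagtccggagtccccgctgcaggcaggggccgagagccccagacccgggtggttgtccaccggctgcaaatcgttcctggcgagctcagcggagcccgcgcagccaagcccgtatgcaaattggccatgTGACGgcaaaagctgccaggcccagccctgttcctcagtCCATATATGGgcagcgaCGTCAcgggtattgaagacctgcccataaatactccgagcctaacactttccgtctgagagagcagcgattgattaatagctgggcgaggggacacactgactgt
Nr4a1 at chr15:101266596-101266895, plus strand: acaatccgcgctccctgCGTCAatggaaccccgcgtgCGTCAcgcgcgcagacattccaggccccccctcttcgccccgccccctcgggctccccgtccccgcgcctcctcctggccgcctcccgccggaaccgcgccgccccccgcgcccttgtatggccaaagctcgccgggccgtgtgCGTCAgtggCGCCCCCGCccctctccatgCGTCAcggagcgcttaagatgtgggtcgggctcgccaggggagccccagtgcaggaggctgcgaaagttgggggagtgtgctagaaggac
Nr4a2 at chr2:57123954-57124253, minus strand: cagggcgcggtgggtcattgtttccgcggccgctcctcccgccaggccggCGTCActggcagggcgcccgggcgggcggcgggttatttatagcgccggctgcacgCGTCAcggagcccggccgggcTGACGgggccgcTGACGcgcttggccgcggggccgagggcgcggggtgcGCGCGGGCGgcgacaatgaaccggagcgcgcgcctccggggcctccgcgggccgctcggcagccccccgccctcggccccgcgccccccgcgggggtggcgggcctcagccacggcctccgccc
Nr4a3 at chr4:48045055-48045354, plus strand: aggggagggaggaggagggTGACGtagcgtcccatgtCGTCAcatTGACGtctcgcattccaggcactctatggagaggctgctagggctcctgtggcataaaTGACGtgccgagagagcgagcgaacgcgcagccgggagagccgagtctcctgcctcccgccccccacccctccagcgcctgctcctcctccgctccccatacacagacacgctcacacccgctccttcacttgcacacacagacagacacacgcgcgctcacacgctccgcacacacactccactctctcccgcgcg

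The Egr2 window held the CArG box CCATATATGG at position -72 from its start site and 2 copies of TGACG, and each NR4A window held 4 copies of TGACG. Of 32851 promoters in the table, 20.8% held TGACG and 1.63% a CArG box. Nr4a1 and Nr4a2 each held 1 EGR motif, and the Nab1 window held 3, a motif in 5.55% of promoters. The Nr4a3 window and the 5 Egr2 windows held 0 EGR motifs. The Nab2 window held 0 of any motif searched. Another of the 5 start sites listed for Egr2 had a CArG box that overlapped an NFAT motif, which 21.4% of promoters hold. The Egr2 window at chr10:67535249-67535548 held 0 of any motif, and the rest overlap the window shown. No NR4A window held a CArG box or an NFAT motif. None of the windows read held the full CRE or the NBRE, which occur in 1.79% and 1.51% of promoters. Egr1 and Egr3 had no entry in the table. A match describes the letters in the window and says nothing of binding.

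Egr2, which encodes a zinc finger factor of anergy and of T cell restraint (chromosome 10, 67535475 to 67542188, plus strand, GRCm38), rose with miR-27a. Its levels with miR-27a were 61.0, 42.7, 82.7 and 70.8 CPM in replicates 1 to 4. The control libraries held 32.6 (from 2 reads), 12.9, 22.9 and 19.7 CPM. Every miR-27a library was above every control library, and the log2 fold change was 1.79 ± 0.23 (SE; edgeR quasi-likelihood test with Benjamini-Hochberg adjustment, adjusted p = 0.000877). Of the 8 members 1, Egr2, was called in this comparison, in which 3.07% of all genes tested were called. The call was kept without the replicate block (1.76, edgeR adjusted p = 0.0260) and in each of 16 fits that left out 1 library (highest edgeR adjusted p 0.0146, without control replicate 3).

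With miR-24, Egr2 stood at 25.9, 22.8, 32.5 and 23.6 CPM, and with miR-23a at 29.4, 20.7, 46.4 and 42.6 CPM. Both sets of values overlapped the control libraries. The log2 fold change against control was 0.53 ± 0.22 with miR-24 (edgeR adjusted p = 0.188) and 0.88 ± 0.22 with miR-23a (edgeR adjusted p = 0.0852). DESeq2 called both (adjusted p = 0.0418 and 0.00165). Of all genes, it called 1029 with miR-24 and 357 with miR-23a, against 591 and 55 by edgeR. By group mean, Egr2 was ordered control at 22.01 ± 8.16 CPM (SD, n = 4; 18.5 ± 5.07 without control replicate 1), miR-24 at 26.2 ± 4.41, miR-23a at 34.8 ± 11.9 and miR-27a at 64.3 ± 16.9 CPM. Each group's libraries overlapped those of its neighbour in this order.

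Set against the other mimics directly, Egr2 was also higher with miR-27a. The difference of miR-24 from miR-27a was -1.26 ± 0.20 on the log2 scale (edgeR adjusted p = 0.00196, and 0.0408 without the block), with no overlap between the libraries and a call in 16 of 16 fits without 1 library. It was the 1 of 8 members called there, against 4.42% of all genes. The difference of miR-23a from miR-27a was -0.90 ± 0.20 (edgeR adjusted p = 0.0173), with miR-27a higher in 4 of 4 replicate numbers. That call was lost without the block (edgeR adjusted p = 0.206). It was also lost without miR-23a replicate 1, 2 or 3 (edgeR adjusted p = 0.0692, 0.0660 and 0.0603), without miR-27a replicate 1 or 3 (0.0562 and 0.0914) and without the 4 libraries numbered 1 (0.0687). These comparisons share the miR-27a libraries, and the comparisons with control share the control libraries.

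**Figure D1:**
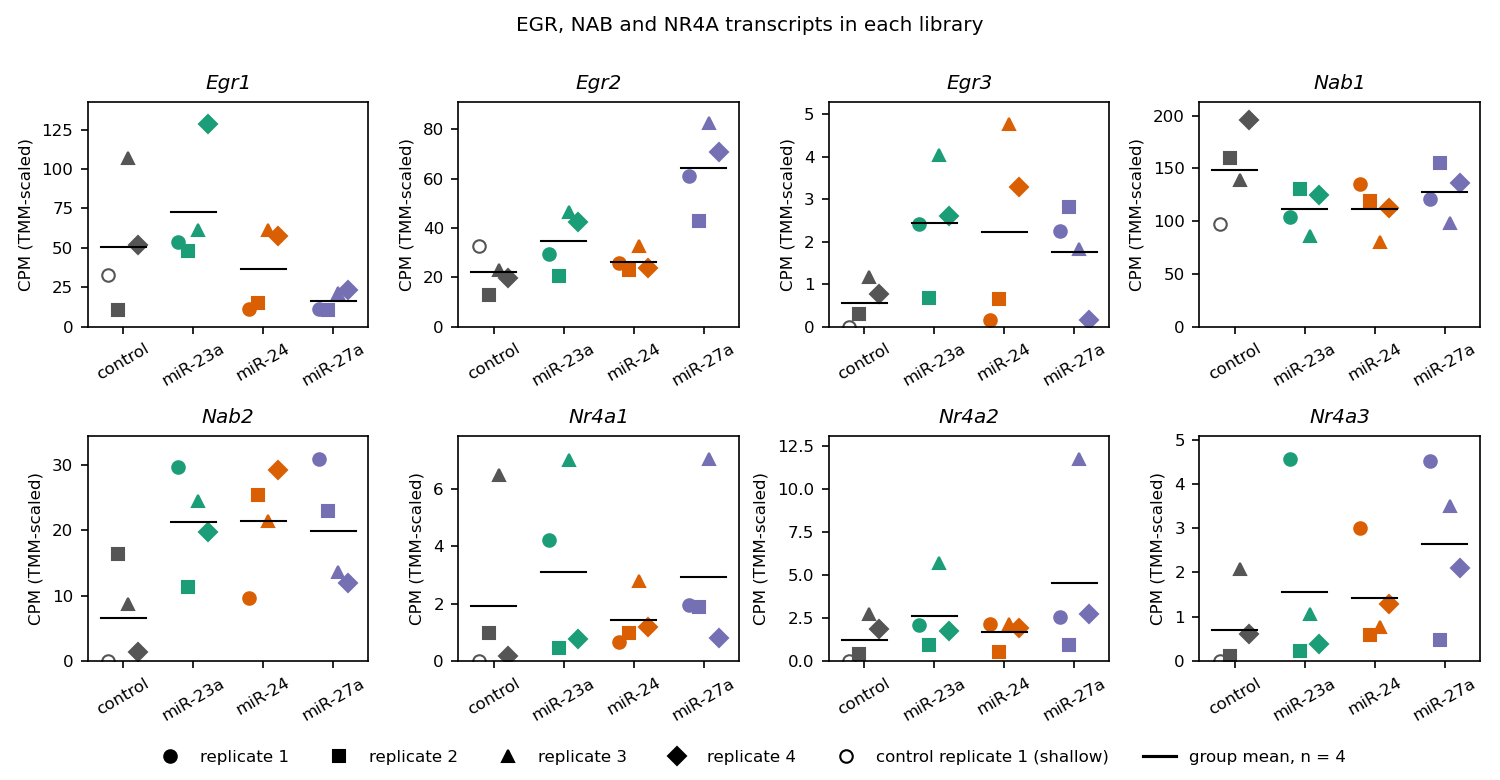
TMM-scaled CPM of the 8 transcripts (vertical axis, a separate scale for each gene) in the 16 libraries by mimic group; symbols give the replicate number, the open circle is the shallow control replicate 1 and lines are means of 4 libraries. Egr2 with miR-27a lies at 42.7 CPM or more and every control library at 32.6 CPM or less, while the Egr1 values of control libraries spread from 10.4 to 107 CPM.

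Egr1, an immediate early factor induced through ERK and SRF (chromosome 18, 34859823 to 34864984, plus strand), was highest with miR-23a and lowest with miR-27a. With miR-23a it stood at 53.6, 47.8, 61.2 and 129 CPM in replicates 1 to 4. With miR-27a it stood at 10.97, 10.3, 21.6 and 23.4 CPM. The libraries of these groups did not overlap, and the difference of miR-23a from miR-27a was 2.25 ± 0.38 on the log2 scale (edgeR adjusted p = 0.00300). Egr1 and Egr2 were the 2 of 8 members called in this comparison, in opposite directions, where 2.95% of all genes were called. The Egr1 call was kept in 16 of 16 fits without 1 library (highest edgeR adjusted p 0.0262) and lost without the block (edgeR adjusted p = 0.199).

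The other groups were spread more widely. Egr1 in the control libraries was 32.6 (from 2 reads), 10.4, 107 and 51.8 CPM, and with miR-24 it was 11.4, 15.1, 61.1 and 57.6 CPM. In both groups, replicates 3 and 4 were above replicate 2. Egr1 was higher with miR-23a than with miR-24 by 1.30 ± 0.35 (edgeR adjusted p = 0.0378), although the libraries overlapped. It was the 1 of 8 members called there, against 5.38% of all genes. This call was lost without the block (edgeR adjusted p = 0.557), in limma (0.319), in a fit of both groups alone (0.0665) and without the 4 libraries numbered 1 (0.204). Leaving out miR-23a replicate 1, 2 or 4 gave edgeR adjusted p of 0.137, 0.116 and 0.116, miR-24 replicate 1, 2 or 3 gave 0.116, 0.122 and 0.0813, and control replicate 1 gave 0.0522.

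Against the control mimic, Egr1 was not called with any mimic. With miR-27a its log2 fold change was -1.31 ± 0.40 (edgeR adjusted p = 0.0777), and miR-27a was lower in 4 of 4 replicate numbers, by 10.3 against 10.4 CPM in number 2. DESeq2 called it (adjusted p = 0.0327), as did edgeR on both groups alone (adjusted p = 0.000132) and without miR-24 replicate 1 (0.0366) or control replicate 2 (0.0168). Of all genes, 951 were called by DESeq2, 1883 with both groups alone and 1010 without control replicate 2, against 398 in the main fit. Without control replicate 3 the Egr1 value was -0.65 (edgeR adjusted p = 0.439). With miR-23a it was 0.94 ± 0.39 (edgeR adjusted p = 0.240), and with miR-24 -0.36 ± 0.37 (edgeR adjusted p = 0.636). Without control replicate 3 these were 1.54 and 0.31, the latter with its sign turned, and without control replicate 2 they were 0.51 and -0.73. No member was called with miR-23a or with miR-24 against control (0 of 8 each), where 0.425% and 4.56% of all genes were called. At an unadjusted p under 0.05, 2202 and 2624 of all genes passed in these comparisons.

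In the test for any difference among the 4 groups, Egr1 and Egr2 were the 2 of 8 members called (edgeR adjusted p = 0.00480 and 0.000321), against 9.68% of all genes. Without the block only Egr2 was called (edgeR adjusted p = 0.0124, and 0.230 for Egr1). The number of genes called over the whole table fell without the block too, from 591 to 110 with miR-24 and from 398 to 22 with miR-27a against control. With DESeq2-type size factors, 61.8% of the genes called with miR-24 against control were higher, against 50.8% with TMM, and for miR-24 against miR-27a the shares were 52.9% and 40.7%. The signs of the 8 members' fold changes against control were the same under both scalings.

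The 2 leading factors were also compared within each library, in a measure chosen after their values were seen. The number of Egr2 reads per Egr1 read does not depend on library scaling. It was 5.56, 4.14, 3.83 and 3.03 in the miR-27a libraries. It was 1 (2 reads of each), 1.25, 0.214 and 0.379 in the control libraries, 0.548, 0.433, 0.759 and 0.331 with miR-23a, and 2.28, 1.51, 0.533 and 0.410 with miR-24. All 4 miR-27a libraries were above the other 12. The mean log2 ratio was 2.01 ± 0.36 (SD, n = 4) with miR-27a, -0.83 ± 1.19 in the control group (-1.10 ± 1.30 without control replicate 1), -1.02 ± 0.51 with miR-23a and -0.10 ± 1.18 with miR-24. In the closest libraries, Egr2 was 75.2% of the reads of both genes in miR-27a replicate 4 (exact 95% interval 71.5% to 78.6%) and 69.5% in miR-24 replicate 1 (63.0% to 75.5%). These intervals overlap, and they cover counting error only.

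**Figure D2:**
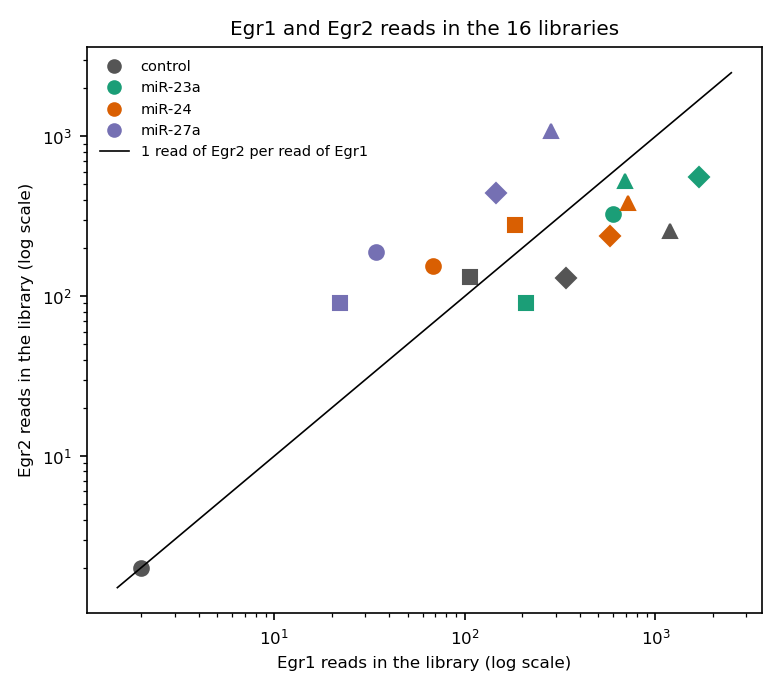
Reads of Egr2 against reads of Egr1 in each of the 16 libraries, both on log axes, with colours for the mimic groups; circles, squares, triangles and diamonds are replicates 1 to 4, and the line marks equal reads. The 4 miR-27a libraries lie at 3.03 to 5.56 Egr2 reads per Egr1 read, above the other 12, of which the highest is at 2.28.

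Egr3, the closest relative of Egr2 in T cell restraint (chromosome 14, 70077203 to 70082614, plus strand), was scarce, with 21 reads in the control group and 38 to 110 in the mimic groups. Control libraries held 0, 0.294, 1.17 and 0.762 CPM, and those with miR-23a 2.42, 0.683, 4.05 and 2.60 CPM. With miR-24 the values were 0.167, 0.658, 4.76 and 3.28 CPM, and with miR-27a 2.26, 2.82, 1.82 and 0.161 CPM. The groups overlapped, and the fitted log2 fold changes against control (1.85 ± 0.84, 1.56 ± 0.82 and 1.34 ± 0.92 for miR-23a, miR-24 and miR-27a) did not pass the test (edgeR adjusted p from 0.272 to 0.40). With miR-27a the value ran from 0.53 without miR-27a replicate 2 to 2.10 without miR-27a replicate 4. A library held 0 to 56 reads, so only a large difference was detectable at this depth. The Egr3 group means with miR-23a and miR-24 were 2.44 ± 1.38 and 2.21 ± 2.18 CPM (SD, n = 4), against 0.557 ± 0.516 CPM in control.

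Nab1, a corepressor of EGR proteins (chromosome 1, 52457294 to 52500679, minus strand), had the most reads of the 8 genes in every group. Control libraries held 97.7 (from 6 reads), 160, 139 and 196 CPM. Levels were 103, 130, 85.8 and 125 CPM with miR-23a, 135, 120, 80.5 and 112 CPM with miR-24, and 121, 155, 98.6 and 136 CPM with miR-27a. The log2 fold changes were -0.52 ± 0.18, -0.51 ± 0.18 and -0.32 ± 0.18, and none passed (edgeR adjusted p = 0.178, 0.128 and 0.312). With control replicate 1 included, each mimic group overlapped the control libraries. Without control replicate 1, every library with miR-23a or miR-24 lay below the 3 control libraries. How many of all genes separated in this way was not counted. Leaving out miR-24 replicate 1 gave a call of miR-24 against control (-0.64, edgeR adjusted p = 0.0253), and so did leaving out the 4 libraries numbered 1 (-0.68, edgeR adjusted p = 0.0239). Of all genes, these fits called 1490 and 1141 in this comparison, against 591 in the main fit.

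Nab2, the corepressor that EGR proteins themselves induce (chromosome 10, 127660918 to 127668568, minus strand), had higher values with each mimic. Control libraries held 0, 16.4, 8.65 and 1.37 CPM. Levels were 29.7, 11.4, 24.5 and 19.7 CPM with miR-23a, 9.69, 25.4, 21.5 and 29.3 CPM with miR-24, and 31.0, 23.0, 13.6 and 11.9 CPM with miR-27a. The log2 fold changes were 1.41 ± 0.59, 1.44 ± 0.58 and 1.19 ± 0.59, all overlapping the control and none called (edgeR adjusted p = 0.248, 0.174 and 0.252). Without miR-24 replicate 1 the value with miR-24 was 1.71 (edgeR adjusted p = 0.0438), and a fit of the miR-27a and control libraries alone gave 1.25 (edgeR adjusted p = 0.00603). Of all genes, these fits called 1490 and 1883 in the same comparisons, against 591 and 398 in the main fit. Without control replicate 4 the values fell to 0.82, 0.86 and 0.64 for miR-23a, miR-24 and miR-27a (edgeR adjusted p = 0.629, 0.442 and 0.613), and without control replicate 2 the miR-23a and miR-24 values were 2.11 and 2.21, the miR-27a value also being larger and none passing the test. Nab2 shares 40 exon bases with Stat6, 151 with Nemp1 and 1050 with the antisense gene Gm16229, all on the opposite strand. The strand setting of the counting is not given in the sources used here, so its reads may include theirs.

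**Figure D3:**
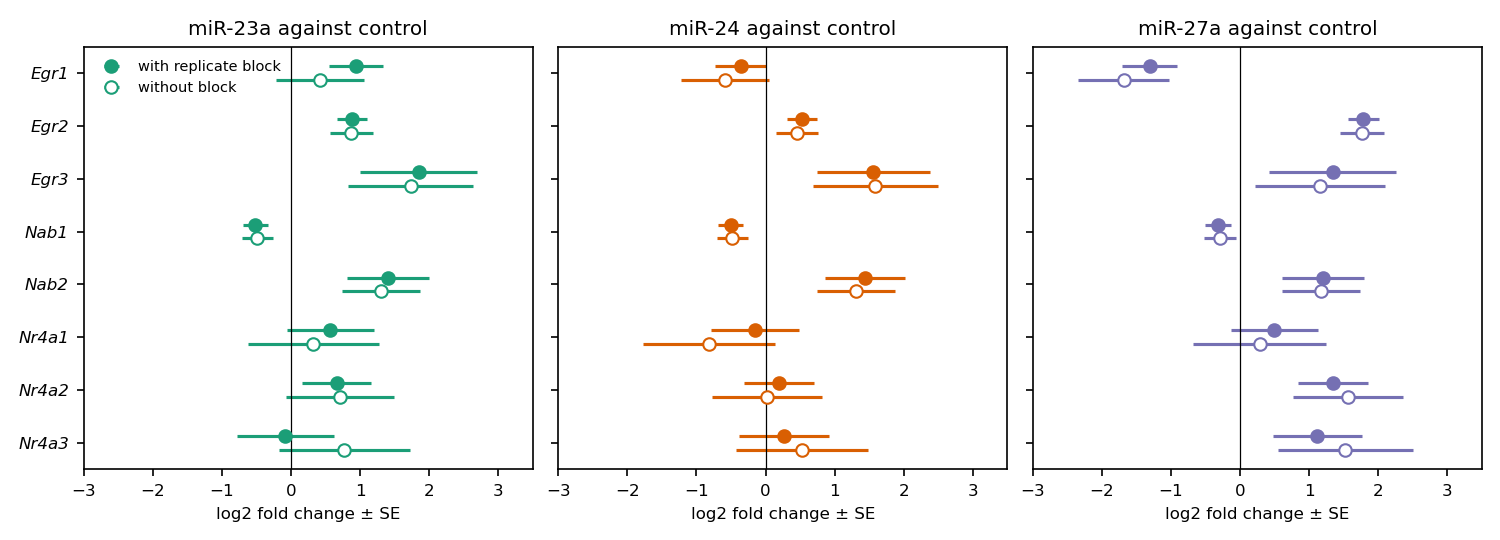
Log2 fold change against the control mimic with its SE (horizontal axis) for the 8 genes, in separate panels for miR-23a, miR-24 and miR-27a; filled points are fits with the replicate number as a block and open points fits without it. Egr2 with miR-27a is the only value called, at 1.79 with the block and 1.76 without, and Egr1 lies at 0.94 with miR-23a and at -1.31 with miR-27a, neither called.

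The NR4A receptors were expressed at low levels in every group, with 28 to 83 reads per gene in the control group and 47 to 182 in the mimic groups. None was called by edgeR in any comparison. Nr4a1, the receptor also known as Nur77 (chromosome 15, 101254269 to 101274795, plus strand), stood at 0, 0.980, 6.49 and 0.152 CPM in control, 4.21, 0.455, 7.04 and 0.764 CPM with miR-23a, 0.668, 0.987, 2.80 and 1.19 CPM with miR-24, and 1.94, 1.88, 7.07 and 0.806 CPM with miR-27a. Replicate 3 was the highest library in 4 of 4 groups. The log2 fold changes against control were 0.57 ± 0.63, -0.15 ± 0.64 and 0.50 ± 0.63 (edgeR adjusted p from 0.662 to 0.929). Without control replicate 3 they were 1.19, 0.41 and 1.12, with the sign turned for miR-24.

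Nr4a2, or Nurr1 (chromosome 2, 57106830 to 57124003, minus strand), was the NR4A gene with the lowest adjusted p. With miR-27a it stood at 2.58, 0.939, 11.8 and 2.74 CPM, against 0, 0.392, 2.70 and 1.83 CPM in control. miR-27a was higher in 4 of 4 replicate numbers. In number 1, the control held 0 reads at 16.3 CPM per read, so that pair says little. The libraries overlapped, and the log2 fold change of 1.34 ± 0.50 did not pass (edgeR adjusted p = 0.138). It was 0.82 without miR-27a replicate 3. With miR-23a the levels were 2.06, 0.911, 5.72 and 1.76 CPM, and with miR-24 they were 2.17, 0.494, 2.12 and 1.89 CPM. The difference of miR-24 from miR-27a was -1.15 ± 0.46 (edgeR adjusted p = 0.169), which limma with sample weights called (-1.74, adjusted p = 0.0432). Limma called 991 of all genes in this comparison, against 572 by edgeR.

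Nr4a3, or Nor1 (chromosome 4, 48045153 to 48086447, plus strand), stood at 0, 0.0980, 2.07 and 0.610 CPM in control and at 4.52, 0.470, 3.498 and 2.10 CPM with miR-27a. With miR-23a it was at 4.57, 0.228, 1.056 and 0.382 CPM, and with miR-24 at 3.01, 0.576, 0.764 and 1.29 CPM. All 3 mimic groups overlapped the control. The log2 fold changes were -0.08 ± 0.70, 0.27 ± 0.65 and 1.12 ± 0.65 for miR-23a, miR-24 and miR-27a (edgeR adjusted p from 0.315 to 0.971). Without control replicate 3 they were 0.84, 1.11 and 2.06, with the sign turned for miR-23a. Replicate 1 was the highest library in the 3 mimic groups. Control replicate 1 had 0 reads, which says little at 16.3 CPM per read.

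For several of these genes, the highest or lowest library bore the same replicate number in most groups. Egr2 was lowest in replicate 2 in 4 of 4 groups and Egr1, Nr4a2 and Nr4a3 in 3 of 4. Egr2, Egr3 and Nr4a2 were highest in replicate 3 in 3 of 4 groups and Nr4a1 in 4 of 4. Nab1 and Nab2 were highest in replicate 3 in 0 of 4. Such ranks were not counted over all genes, so how common these patterns are is not known. Control replicate 1 held 2 reads of Egr2 and 0 of Egr3, Nab2 and the NR4A genes, so its rank says little. The labels do not say what a replicate number stands for, and a shared culture, mouse or lane cannot be told apart.

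**Figure D4:**
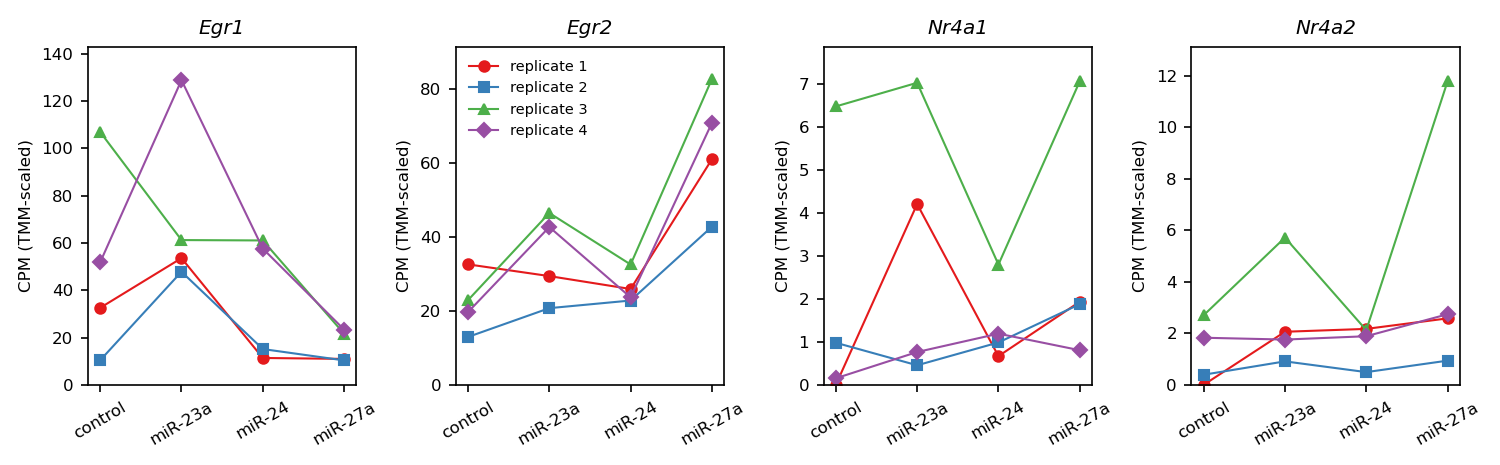
TMM-scaled CPM of Egr1, Egr2, Nr4a1 and Nr4a2 in the 4 mimic groups, with a line for each replicate number; the order of groups on the horizontal axis carries no meaning. Replicate 3 gives the highest Nr4a1 value in 4 of 4 groups, and Egr2 is higher with miR-27a than with control, miR-23a or miR-24 in 4 of 4 replicate numbers.

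To compare genes with each other, CPM values were also divided by annotated exon length in kilobases. On this scale (RPKM), control means were ordered Nab1 at 36.1 ± 9.98, Egr1 at 11.2 ± 9.21, Egr2 at 6.48 ± 2.40 and Nab2 at 2.24 ± 2.56 (SD, n = 4), followed by Nr4a1, Nr4a2, Egr3 and Nr4a3 at 0.116 to 0.543. Control libraries of Egr1 (2.32 to 23.8) and Egr2 (3.81 to 9.58) overlapped. With miR-27a the order was Nab1 at 31.1 ± 5.86, Egr2 at 18.9 ± 4.97, Nab2 at 6.76 ± 3.01 and Egr1 at 3.70 ± 1.53. There the libraries of Egr2 (12.6 to 24.3) and Egr1 (2.30 to 5.21) did not overlap, while Nab2 (4.06 to 10.5) overlapped Egr1, and Nab1 (24.1 to 37.9) met Egr2 at its lower end. With miR-23a and miR-24, Egr1 and Egr2 overlapped. The NR4A genes stayed at or below 2.90 in every library.

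The genes whose log2 CPM most resembled each member over 15 libraries, control replicate 1 left out, were named as a description; the libraries share groups and replicate numbers, and 7556 genes were searched. For Egr2 they were the receptor kinase gene Axl (Pearson r = 0.885), the calcium-binding protein gene S100a4 (0.878) and the phosphatase gene Ptpn9 (0.853). For Egr1 they were the cytokine gene Il21 (0.876), Pla2g6 (0.857) and Asb2 (0.853). Nab2 went most closely with Csnk1g2 (0.952), Nab1 with Haus6 (0.933), Egr3 with D8Ertd738e (0.909), Nr4a1 with Lypla2 (0.907), Nr4a3 with St3gal2 (0.855) and Nr4a2 with Gpr83 (0.851). With control replicate 1 included, 0 or 1 of each member's 3 nearest genes stayed the same, S100a4 for Egr2 and Asb2 for Egr1 among them.

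Genes upstream, beside and downstream of the EGR and NR4A factors were read as 8 lists, described by counts. The lists were chosen with earlier results of these data known. Their counts beside the share of all genes, here and below, are therefore a description and no test of enrichment. With miR-23a against control, 0 genes of any list were called, near the 0.425% of all genes. With miR-24, where 4.56% of all genes were called, 5 of 41 other immediate early genes were higher and 3 lower. They include Klf2, a factor of quiescence (-1.44 ± 0.25), Nfkbid, a nuclear modulator of NF-kB (1.72 ± 0.38), and Ier3 (1.61 ± 0.33). Of 34 calcium and NFAT genes, 1 was higher, the kinase gene Camk4 (0.68 ± 0.18), and 2 were lower, the channel gene Orai2 (-0.74 ± 0.20) and the NFAT member gene Nfatc3 (-0.91 ± 0.16). Of 34 ERK and SRF genes, 2 were lower, Nras (-0.76 ± 0.17) and the SRF coactivator gene Mkl2 (-0.90 ± 0.19). These genes had edgeR adjusted p from 0.00366 to 0.0458. Without the block, 1, 1 and 0 of these lists' genes were called, beside 110 of all genes. The immediate early count ran from 1 without control replicate 4 to 13 without miR-24 replicate 1, the ERK and SRF count from 0 without miR-24 replicate 3 to 8 without miR-24 replicate 1, and the calcium and NFAT count of 3 was 1 without miR-24 replicate 2. Of all genes, 1490 were called without miR-24 replicate 1, against 591 in the main fit. Limma and a fit of both groups alone also called 1 calcium and NFAT gene. DESeq2 called 6, among 1029 of all genes.

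Among genes tied to EGR and NR4A output, 5 of 26 EGR-linked restraint genes were called with miR-24, 3 higher and 2 lower, beside 4.56% of all genes. They include Tnfsf9, the ligand of 4-1BB (1.31 ± 0.31), the stress gene Ndrg1 (0.99 ± 0.26) and the cell cycle inhibitor gene Cdkn1b (-0.996 ± 0.247). Of 16 EGR effector targets, 2 were higher and 4 lower, with Hbegf, an EGF receptor ligand (2.93 ± 0.33), Lif, a cytokine (-1.23 ± 0.22), and Tnfsf14 (-1.39 ± 0.33) at the smallest p. Of 19 NR4A-linked dysfunction genes, 1 was higher, Cd200 (1.19 ± 0.27), and 4 lower, including Tcf7, a factor of naive and memory T cells (-2.51 ± 0.25), and Tox2 (-2.06 ± 0.44). These genes had edgeR adjusted p from 4.54e-05 to 0.0397. Without the block, 0, 2 and 1 genes of these 3 lists were called, beside 110 of all genes. Without miR-24 replicate 2 the counts were 0, 2 and 1, and the highest were 8 without miR-27a replicate 4 for restraint genes and 8 and 7 without miR-24 replicate 1. Of all genes, 1490 were called without miR-24 replicate 1, against 591 in the main fit. The miR-24 libraries also had the higher dendritic marker sums given above, and the part of those transcripts in these counts was not tested. The NAB corepressor partners (17 genes) and NR4A partners (12 genes) had 0 called.

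With miR-27a, where 3.07% of all genes were called, 2 of 26 restraint genes were higher and 2 lower. Nrn1, which encodes neuritin and is tied to anergy (1.29 ± 0.27), was higher, and Il10 (-2.88 ± 0.42) and Ikzf1, or Ikaros (-1.05 ± 0.16), were lower. Of 16 effector targets, Tnfsf11, or RANKL (1.49 ± 0.30), was among 2 that were higher, and Il2ra, the IL-2 receptor alpha chain (-0.98 ± 0.17), and Lif (-1.07 ± 0.22) were lower. Of 19 dysfunction genes, Runx1 (-0.95 ± 0.22) and Entpd1, or CD39 (-1.76 ± 0.43), were lower. Of 41 immediate early genes, Bhlhe40 (1.24 ± 0.31) was higher, and Nfkbiz (-1.21 ± 0.24) and the activation marker gene Cd69 (-0.83 ± 0.20) were lower. The calmodulin gene Calm3 (-1.11 ± 0.23), the Ras regulator gene Rasa2 (-0.84 ± 0.19) and Rxra, a partner receptor of NR4A proteins (1.11 ± 0.29), were the only genes called in their lists, and 0 of 17 NAB partners were called. These genes had edgeR adjusted p from 0.00262 to 0.0390, and without the block 1 of them, Ikzf1, was called (edgeR adjusted p = 0.0192). The fit without the block called 22 of all genes in this comparison.

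The median log2 fold change of the restraint list with miR-27a was 0.03 and that of the effector targets -0.000337, beside 0.02 over all genes. The dysfunction list had medians of -0.37 with miR-27a and -0.65 with miR-24, beside 0.02 and 0.04. The other 5 lists had medians between -0.21 and 0.23 in the 3 comparisons with control. Counts with miR-27a moved with single libraries: restraint genes from 2 without miR-27a replicate 2 to 6 without miR-27a replicate 4, effector targets from 1 without miR-27a replicate 3 to 6 without miR-24 replicate 1, dysfunction genes from 0 without miR-27a replicate 1 to 5 without miR-27a replicate 4, and immediate early genes from 0 without miR-27a replicate 2 to 6 without control replicate 2. The counts of 1 in the calcium, ERK and NR4A partner lists ran from 0 to 3, 0 to 2 and 0 to 4 without 1 library. The number called among all genes moved too, from 51 without control replicate 3 to 1010 without control replicate 2, against 398 in the main fit. A fit of the miR-27a and control libraries alone called more in every list: 12 immediate early, 7 restraint, 7 effector, 7 dysfunction, 7 ERK and SRF, 5 calcium and NFAT, 4 NR4A partner and 2 NAB partner genes, among 1883 genes called in all.

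**Figure D5:**
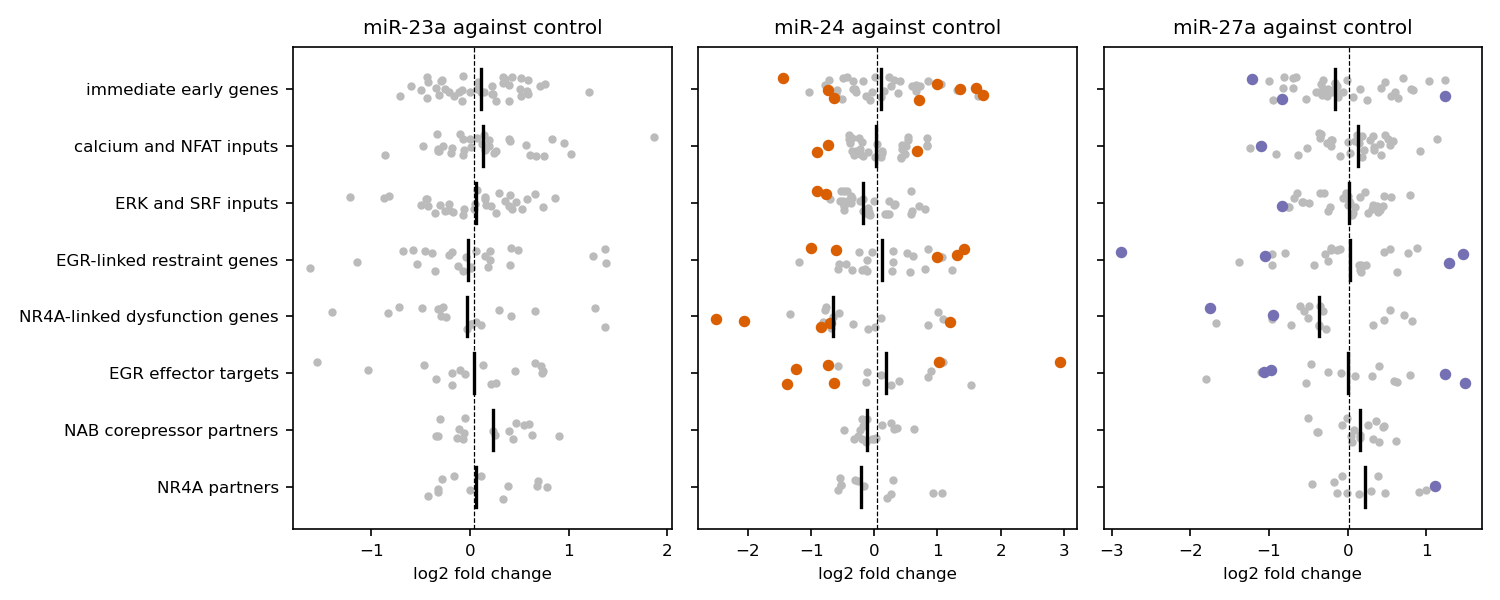
Log2 fold change against control (horizontal axis) of each tested gene of the 8 lists in separate panels for miR-23a, miR-24 and miR-27a; coloured points were called by edgeR with the replicate block, grey points were not, short bars are list medians and the dashed line is the median of all genes. No list has a called gene with miR-23a, while with miR-24 and miR-27a called genes lie on both sides of 0 in the immediate early, restraint and effector lists.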

How the data were processed

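Per the labels, 1 ng of RNA from 150000 to 800000 sorted cells was amplified (NuGEN Ovation) and sequenced as single 50-base reads. The authors deposited raw read counts per gene symbol for each library, and 5 summary lines per file were left out. The summary lines held 64.6% to 77.6% of all counts, which need not be a share of reads. Bowtie2, TopHat, DESeq and mm10 are named, without versions, in the submitters' processing notes; the counter and the strand setting are not given in the sources used here. The 8 members and the gene lists were chosen with earlier results of these data known.

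In R 4.3.3, edgeR 4.0.16 was used: filterByExpr, TMM scaling, and the robust quasi-likelihood test over all 16 libraries with group and replicate number as terms (9 residual degrees of freedom), two-sided, with Benjamini-Hochberg adjustment over all genes tested at 0.05 ("called"). CPM uses TMM-scaled library sizes. Each SE was derived as the absolute log2 fold change divided by the square root of the test's F statistic. It need not match the p-value exactly. The block was set by the rule that chose the members. Same-numbered libraries deviated together (all 4 correlations over 0.1, across 4746 genes) for miR-27a with control (0.198 to 0.611), miR-23a with miR-24 (lowest 0.350) and miR-23a with miR-27a (lowest 0.257). For the other 3 pairs of groups 3 of 4 did (lowest -0.12, 0.0304 and -0.0072), so values without the block stand beside each call they change.

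Named genes were the 8 members, up to 3 called genes with the smallest adjusted p per list and comparison with control, and the 3 genes most like each member (mean log2 CPM of at least 3, prior count 2). DESeq2 1.42.0, limma 3.58.1, other size factors, other filters, fits of both groups alone and fits without 1 library or without the libraries numbered 1 were alternatives. The scripts were tested on simulated data.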

Additional observations from a re-analysis of the deposited data

Results flagged for a closer look

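A total of 40 sets of 4 libraries (the 8 genes, the Egr2 to Egr1 ratio and gene reads in each group) were searched for a library far from the other 3, by Dixon's ratio at its 95% critical value, and 5 were found. Chance gives about 1 in 20 for independent, normally distributed values. Sparse CPM values from the same libraries need not follow that rate. Nr4a1 in control replicate 3 stood at 6.49 CPM, with the other control libraries at 0 to 0.980 CPM. Egr1 in miR-23a replicate 4 stood at 129 CPM, with the others at 47.8 to 61.2 CPM. Nr4a2 stood at 11.8 CPM in miR-27a replicate 3, with the others at 0.939 to 2.74 CPM, and at 0.494 CPM in miR-24 replicate 2, with the others at 1.89 to 2.17 CPM. Gene reads in miR-23a replicate 2 were 4086654, with the others at 11370150 to 12582408.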

How the results depend on the processing

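Over 24 alternatives, 1148 fold changes of the 8 genes were recomputed; 39 changed sign, none of them called, 19 lost a call and 11 gained one. Egr2 with miR-27a, against control and against miR-24, and Egr1 for miR-23a against miR-27a kept their calls in every fit without 1 library. Without the replicate block, genes called numbered 17, 110 and 22 for miR-23a, miR-24 and miR-27a against control, 114 for miR-24 against miR-27a, 142 for miR-23a against miR-24, 71 for miR-23a against miR-27a and 251 for any difference, and members called were 0, 0 and 1 for the last 3. The block changed no other call of a member. The main counts were 55, 591, 398, 572, 697, 382 and 1254. DESeq2 called 357, 1029, 951, 1005, 1068 and 703 genes in the 6 comparisons, and 1, 1 and 2 members against control. Limma called 32 genes for miR-23a against control, 991 for miR-24 against miR-27a (2 members) and 458 for miR-23a against miR-24 (0 members). Both groups alone gave 34 genes for miR-23a and 1883 for miR-27a against control (3 members), 148 for miR-24 against miR-27a, and 0 members for miR-23a against miR-24. Without the libraries numbered 1, edgeR called 1141 genes for miR-24 against control (1 member), 339 for miR-23a against miR-24 (0 members) and 235 for miR-23a against miR-27a (1 member).

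Without any 1 library, genes called ran from 12 to 334, 123 to 1490 and 51 to 1010 against control, 190 to 737 for miR-24 against miR-27a, 262 to 796 for miR-23a against miR-24, 127 to 548 for miR-23a against miR-27a and 584 to 1780 for any difference. Control replicate 3 gave the lowest and control replicate 2 or miR-24 replicate 1 the highest counts against control. Members called ran from 0 to 0, 0 to 2 and 1 to 2 against control, 1 to 1, 0 to 1, 1 to 2 and 2 to 2 in the others. The cause of these shifts was not tested. At 51474 reads, control replicate 1 says little of Egr3 and the NR4A genes.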

Other observations

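The members' CPM values were also summed by family. The 3 EGR transcripts together averaged 73.0 ± 44.2 CPM in control libraries (SD over 4 libraries, here and below). The miR-23a mean was 110 ± 46.1, the miR-24 mean 64.7 ± 31.4 and the miR-27a mean 82.6 ± 22.2 CPM, and all groups overlapped. The NR4A sum was 3.83 ± 5.07 CPM in control, and for miR-23a, miR-24 and miR-27a it was 7.29 ± 5.97, 4.49 ± 1.75 and 10.1 ± 8.52 CPM. The NAB sum, carried by Nab1, was 155 ± 43.1, 133 ± 15.6, 133 ± 20.95 and 148 ± 27.2 CPM in the same order. These sums were read after the single genes and were not tested.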
